A study of Macaca mulatta with 24 samples.

Results

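Cholesterol synthesis and its control by the sterol regulatory element binding proteins (SREBPs) were followed gene by gene through a written list of 27 pathway genes, each taken where the gene name table or, failing that, the supplementary tables of the study gave its symbol to an Ensembl identifier in the count table. They comprised 8 genes of the mevalonate steps, 11 of the sterol steps, 7 of SREBP control and the sterol carrier STARD4. Of the 32386 genes in the count table, 22 were matched to these 27 names, and 21 of them were among the 15207 genes with enough counts to be tested. PMVK, FDFT1, SC5D, MBTPS2 and STARD4 were not analysed here, because no identifier was matched to their names. GGPS1, which makes geranylgeranyl diphosphate, was listed with 3 counts over all 24 libraries and was not tested.

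Cells build cholesterol from acetyl-CoA, which is condensed to mevalonate, converted to activated isoprenes, joined into squalene and closed into lanosterol, the precursor that the later sterol enzymes trim to cholesterol. When membrane sterol is low, SCAP carries the SREBPs from the endoplasmic reticulum to the Golgi, where the proteases encoded by MBTPS1 and MBTPS2 release the part that enters the nucleus and activates genes for sterol and fatty acid synthesis. When sterol is high, the INSIG proteins hold SCAP back, and INSIG1 is itself an SREBP target, so its mRNA is often read together with the enzymes.

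The tissue was omental white adipose tissue (WAT), a visceral fat depot, taken by biopsy in year 3 of treatment from 24 female rhesus macaques and measured as whole tissue by RNA-seq, with 1 library per animal. The 4 groups of 6 animals were *C*, which received implants of cholesterol as control and ate monkey chow; *T*, which received testosterone implants and chow; *WSD*, which received the control cholesterol implants and a high-fat Western-style diet; and *T* + *WSD*, which received testosterone implants and that diet. The cholesterol implants of *C* and *WSD* are part of each comparison of these 2 groups with a testosterone group. The labels give an age of 4 years for every animal, while the study's methods give an older age, and the animals had been picked to represent the fat mass and insulin findings of their groups.

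Between 6899185 and 28270776 counts per library fell on genes. The median per group was 20293398 in *C*, 21995508 for *T*, 22389113 for *WSD* and 20501758 for *T* + *WSD*. In 8 libraries, 2 in each group, the same unnamed gene, ENSMMUG00000038258, held between 9.92% and 54.7% of all counts, while its share was 0.879% to 2.51% in the other 16. The 8 libraries are called the library batch here by that share alone, since the sample labels name no batch. A pair of libraries stood apart from the rest, since *C* replicate 1 held the highest value of 17.1% of all tested genes and *WSD* replicate 20 that of 11.2%. Levels are given as CPM, which are counts scaled to a common normalized library size, and since gene lengths were not used, the levels of different genes are not on 1 scale. Of 9 adipocyte markers, 7 were matched, and their summed level ran from 1500 CPM in *C* replicate 1 to 14900 CPM in *T* replicate 14, with PLIN4, a lipid droplet protein, adding the most to the sum in the mean of each group. None of those 7 markers was at 0 in every animal.

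A member was called when its adjusted p from edgeR's quasi-likelihood test was under 0.05 and its fold change over 1.5. For CYP51A1, INSIG1, MSMO1 and EBP the identifier came from the study's own lists of changed genes, so their calls are not independent of that selection, and counts are also given for the 17 tested members named by the gene name table. The comparisons below share groups, so their values are given side by side and are not independent of each other.

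Part of the pathway was lower under the combined treatment. In *T* + *WSD* against *C*, 6 of the 21 tested members were called lower, against 5.29% of all tested genes, and 0 were called higher, against 4.72%. All 6 were enzymes: ACAT2 and FDPS of the mevalonate steps and CYP51A1, TM7SF2, MSMO1 and EBP of the sterol steps. The fold changes of 14 of the 15 tested enzymes were negative, and their median log2 fold change was -0.65, against -0.49 over the 21 members and -0.04 over all tested genes. For 3 members every *T* + *WSD* animal lay below every control, against 4.12% of all tested genes. Of these 3, MSMO1 and EBP had identifiers from the study's own lists of changed genes. Among the 17 members of the gene name table, 3 were called, and the median log2 fold change over the 17 was -0.29. Of the 17, 1 lay below every control in all *T* + *WSD* animals, a share near that of all tested genes. With the mean of the mesothelial markers as a covariate 0 members were called, as set out next. In whole tissue, fewer cells of a type and less RNA per cell cannot be told apart.

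Markers of mesothelial cells were lower in the same group. The summed level of 8 matched mesothelial markers (of 9), cells of the peritoneal lining, ran from 901 to 3860 CPM in *C* (median 1180), 675 to 1720 CPM in *T* (median 999), 187 to 1190 CPM in *WSD* (median 849) and 60.8 to 449 CPM in *T* + *WSD* (median 308). MSLN added the most to the sum in the means of *C*, *T* and *WSD* and UPK3B in that of *T* + *WSD*, none of the 8 was at 0 in every animal, and 7 of 8 were called lower in *T* + *WSD* against *C*, against 5.29% of all tested genes, with the identifier of KRT8 among them taken from the study's own lists. With the mean of this list as a covariate, 0 members and 0 of all tested genes were called in *T* + *WSD* against *C*, and the median log2 fold change of the members was -0.20, where it was -0.49 without the covariate. The log2 fold changes were then -0.71 for ACAT2, -0.44 for FDPS, -0.20 for CYP51A1, -1.10 for TM7SF2, -0.09 for MSMO1 and -0.56 for EBP. The covariate, the mean log2 CPM of these markers, ran from 6.20 to 7.36 in *C*, 5.55 to 6.76 in *T* and 2.56 to 5.13 in *T* + *WSD*. It did not overlap between *T* + *WSD* and *C* or *T*, so these fits cannot tell the part of the cells from that of the treatment. The part of these cells, or of those whose markers are given further below, in the levels of the sterol genes was not tested.

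ACAT2 (ENSMMUG00000012843) encodes the cytosolic thiolase that condenses acetyl-CoA at the entry to the pathway. It ran from 17.04 to 41.2 CPM in *C* (median 30.1) and from 11.1 to 20.4 CPM in *T* + *WSD* (median 13.7). Below every control were 5 of the 6 *T* + *WSD* animals, and replicate 11 overlapped with the control range. The log2 fold change was -0.98 (standard error, SE, 0.29; adjusted p = 0.0244 by edgeR). Next on the way to mevalonate, HMGCS1 averaged 30.9 ± 7.68 CPM in *C* and 26.0 ± 5.39 CPM in *T* + *WSD* (SD, n = 6 each) and was not called (adjusted p = 0.408 by edgeR).

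MVK phosphorylates mevalonate, MVD turns it into isopentenyl diphosphate and IDI1 isomerizes that product. Their log2 fold changes in *T* + *WSD* against *C* were 0.24 for MVK, -0.83 for MVD and -0.34 for IDI1, none of them called. FDPS (ENSMMUG00000023144), which joins the isoprenes into farnesyl diphosphate, ran from 31.6 to 63.2 CPM in *C* (median 55.0) and from 29.0 to 39.5 CPM in *T* + *WSD* (median 29.6). Again 5 of the 6 *T* + *WSD* animals were below every control, and the log2 fold change was -0.70 (SE 0.21, adjusted p = 0.0247 by edgeR).

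SQLE, which oxidizes squalene, and LSS, which closes the ring to lanosterol, were not called, with log2 fold changes of -0.99 and -0.15. CYP51A1 (ENSMMUG00000038190) removes a methyl group from lanosterol and ran from 27.9 to 50.4 CPM in *C* (median 40.7) and from 24.7 to 30.9 CPM in *T* + *WSD* (median 25.8). Its groups overlapped, with 4 of 6 *T* + *WSD* animals below every control, and its log2 fold change was -0.59 (SE 0.19, adjusted p = 0.0379 by edgeR). This call was the most easily lost of the 6, since leaving out any of 8 single animals gave an adjusted p above 0.05 and a highest value of 0.0784 without *C* replicate 4. It was also lost in 10 of 14 other settings, among them DESeq2, RLE size factors and both other filters on low counts.

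MSMO1 (ENSMMUG00000039955) oxidizes methyl groups at another position of the sterol. Its level was 28.7 to 53.2 CPM in *C* (median 37.9) and 16.96 to 25.4 CPM in *T* + *WSD* (median 21.9). The groups did not overlap, and the log2 fold change was -0.84 (SE 0.24, adjusted p = 0.0203 by edgeR). EBP (ENSMMUG00000044056) shifts a double bond of the sterol ring and ran from 17.7 to 36.5 CPM in *C* (median 26.95) and from 10.4 to 12.9 CPM in *T* + *WSD* (median 11.1). Here too the groups did not overlap, and the *T* + *WSD* animals lay within a 1.25-fold range. The log2 fold change of EBP was -1.22 (SE 0.31, adjusted p = 0.0131 by edgeR).

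TM7SF2 (ENSMMUG00000018773), a sterol reductase that acts after CYP51A1, ran from 32.7 to 59.1 CPM in *C* (median 49.8) and from 12.2 to 30.9 CPM in *T* + *WSD* (median 17.4). All 6 *T* + *WSD* animals were below every control, and the log2 fold change was -1.27 (SE 0.25, adjusted p = 0.00385 by edgeR). The remaining sterol enzymes were not called: NSDHL and HSD17B7, which finish the removal of the methyl groups, had log2 fold changes of -0.49 and -0.29, and DHCR7, the reductase at the end of a branch, had -0.65.

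**Figure D1:**
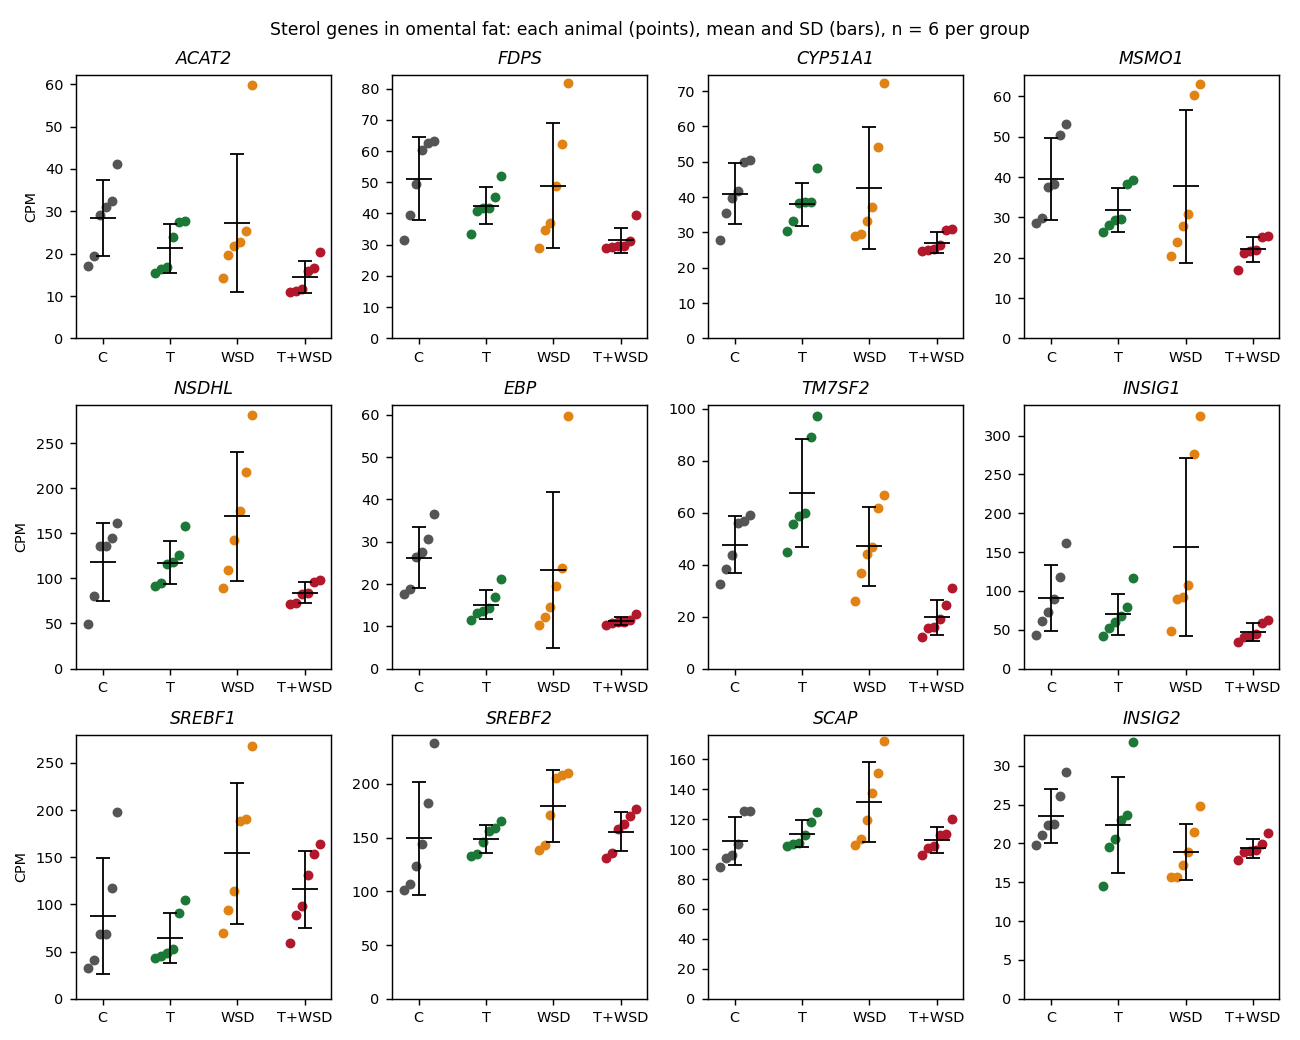
CPM (y axis, from 0) of 12 members in each animal (points) of the 4 groups (x axis), with the mean and SD of 6 animals as bars. For TM7SF2, MSMO1 and EBP the 6 *T* + *WSD* points lie below every *C* point, while single *WSD* animals reach 59.7 CPM for EBP and 325 CPM for INSIG1.

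The direction of these changes was alike in both sets of libraries, but neither set alone gave a call. In the 16 libraries outside the batch the log2 fold changes in *T* + *WSD* against *C* were -1.14 for ACAT2, -0.78 for FDPS, -0.59 for CYP51A1, -1.01 for TM7SF2, -0.83 for MSMO1 and -1.28 for EBP. In the 8 libraries of the batch they were -0.56, -0.44, -0.53, -1.72, -0.81 and -1.02 in the same order. With 4 or 2 animals per group, 0 members were called in either set, where 0.505% of all tested genes were called outside the batch and 0 within it. Without *C* replicate 4 or without *T* + *WSD* replicate 8, 3 members were called instead of 6, and without the pair of libraries that stood apart 6 were, with MVD in place of CYP51A1. Of all tested genes 9.61%, 7.29% and 6.46% were called in these fits in the same order, against 10% with every animal.

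Set against the diet alone, *T* + *WSD* was also lower. In *T* + *WSD* against *WSD*, 3 of the 21 tested members were called lower, against 0.381% of all tested genes, and they were TM7SF2, NSDHL and INSIG1. All 15 enzymes had a negative fold change, with a median log2 fold change of -0.77, against -0.03 over all tested genes. Over the 21 members the median was -0.64, and it was -0.76 outside the batch and -0.37 within it. In 1 member, MVD, every *T* + *WSD* animal was below every *WSD* animal, against 1.37% of all tested genes. At an unadjusted p under 0.05 there were 13 members, all lower, against 1837 of the 15207 tested genes lower at that threshold, and DESeq2 called 9 of the 22 matched members, against 2.54% of the genes it tested. A fit to the compared groups alone called 0 members, against 0.316% of its tested genes. Without a filter on low counts 1 member was called, against 0.271%. Among the 17 members of the gene name table, 2 were called, 9 were lower at an unadjusted p under 0.05 and 16 had a negative fold change. The median log2 fold change over these 17 was -0.44. All 8 mesothelial markers had a negative fold change here, with a median log2 fold change of -1.40, but 0 of them were called, with 6 at an unadjusted p under 0.05. With their mean as a covariate 0 members were called, where 0.00658% of all tested genes were. At an unadjusted p under 0.05 were then 6 members, against 1418 of 15207 tested genes. The median over the members was -0.51 with the covariate, against -0.64 without it.

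NSDHL (ENSMMUG00000013176), a dehydrogenase of the methyl removal, ran from 89.3 to 281 CPM in *WSD* (median 158) and from 71.2 to 98.7 CPM in *T* + *WSD* (median 82.8). Of the *T* + *WSD* animals 4 were below every *WSD* animal, and the log2 fold change was -1.01 (SE 0.26, adjusted p = 0.049 by edgeR). The adjusted p of NSDHL was above 0.05 when any of 17 single animals was left out. INSIG1 (ENSMMUG00000047977) ran from 48.2 to 325 CPM in *WSD* (median 99.9) and from 33.6 to 62.4 CPM in *T* + *WSD* (median 43.0).

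*WSD* replicates 20 and 24 were far above the other 4 *WSD* animals for INSIG1, and 4 of 6 *T* + *WSD* animals lay below the whole *WSD* group. The log2 fold change of INSIG1 was -1.73 (SE 0.39, adjusted p = 0.0343 by edgeR), and it was -1.39 (adjusted p = 0.0862 by edgeR) without replicate 20 and -1.49 (adjusted p = 0.1 by edgeR) without replicate 24. TM7SF2 ran from 26.0 to 66.7 CPM in *WSD* (median 45.4), and 5 of 6 *T* + *WSD* animals were below that range. Its log2 fold change was -1.25 (SE 0.25, adjusted p = 0.0227 by edgeR).

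The 3 calls depended on which animals were in the fit, while the fold changes kept their direction. With each animal left out in turn, the log2 fold change was -1.43 to -1.13 for TM7SF2, -1.14 to -0.80 for NSDHL and -1.92 to -1.39 for INSIG1. The count was 0 without *WSD* replicate 20 or 24 or without *T* + *WSD* replicate 7, 8 or 9, and 1 without *T* + *WSD* replicate 10, 11 or 12. Over all tested genes 124 were called with every animal and 9 to 32 in those fits with a count of 0. Without the pair of libraries that stood apart the count of members was also 0. It was 5 without *C* replicate 1 or *WSD* replicate 19 and 7 without *WSD* replicate 21. Of all tested genes 1.23%, 1.17% and 2.92% were called without these animals in the same order, against 0.815% with every animal. In the 16 libraries outside the batch the log2 fold changes were -0.96 for NSDHL, -1.56 for INSIG1 and -1 for TM7SF2, and in the 8 libraries of the batch they were -1.07, -1.98 and -1.70. In either set 0 members and 0 of all tested genes were called.

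**Figure D2:**
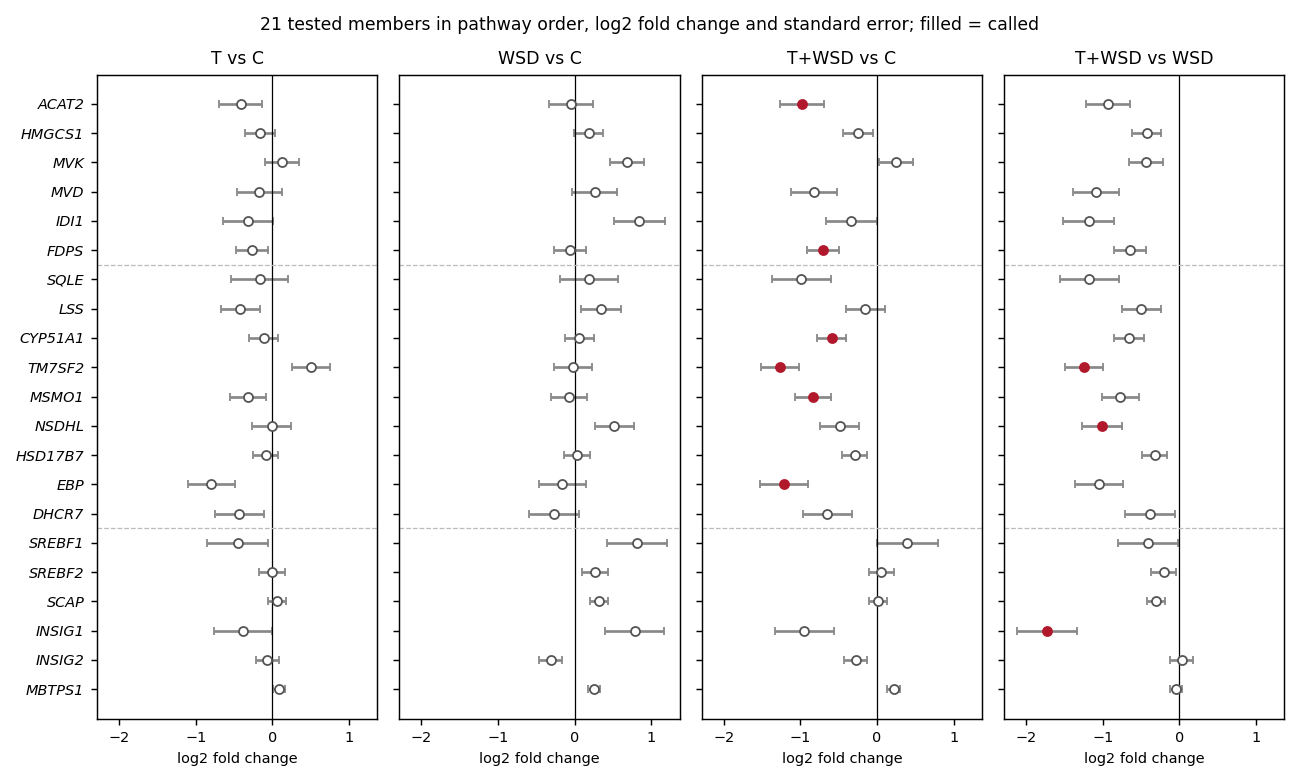
Log2 fold change (x axis) of the 21 tested members in pathway order (y axis; dashed lines part mevalonate, sterol and control genes) in 4 comparisons that share groups, with standard errors as bars and called members filled. The 15 enzymes all lie left of 0 in *T* + *WSD* against *WSD*, and TM7SF2 is the member filled in both *T* + *WSD* panels.

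TM7SF2 was lowest in *T* + *WSD*, and its mean was highest in *T*. In *T* against *C* its log2 fold change of 0.51 was not called (adjusted p = 0.577 by edgeR), with 3 of 6 *T* animals above every control, and it was 0.76 outside the batch and 0.05 within it. It ran from 44.9 to 97.2 CPM in *T* (median 59.3), with replicates 16 and 18 the highest, and all 6 *T* + *WSD* animals were below every *T* animal. In *T* + *WSD* against *T*, 1 of 21 members was called lower, against 1.43% of all tested genes, and it was TM7SF2, with a log2 fold change of -1.78 (SE 0.25, adjusted p = 0.00113 by edgeR). Groups did not overlap for TM7SF2 and MSMO1, against 3.1% of all tested genes lower without overlap. Of the 8 mesothelial markers 6 were called lower in this comparison, with a median log2 fold change of -2.07, and with their mean as a covariate 0 members and 0 of all tested genes were called, at a log2 fold change of -1.64 for TM7SF2. In 16 and 8 libraries the log2 fold change of TM7SF2 in this comparison was -1.77 and -1.77.

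The interaction of testosterone and diet asks whether the effect of testosterone differs between the 2 diets. At an adjusted p under 0.1, 1 of 21 members passed, against 0.809% of all tested genes. This was TM7SF2, with a difference of -1.75 between the log2 fold changes in *T* + *WSD* against *WSD* and in *T* against *C* (SE 0.35, adjusted p = 0.0337 by edgeR). The difference was -1.76 outside the batch and -1.74 within it, and it passed the threshold in all 24 fits that left out 1 animal, but not in either set of libraries alone. INSIG1 had a difference of -1.35 (SE 0.54, adjusted p = 0.275 by edgeR). The interaction was negative for 18 of 21 members, with a median of -0.37 on the log2 scale, against -0.02 over all tested genes. Over the 17 members of the gene name table it was negative for 14, with a median of -0.37. The identifiers of INSIG1 and CYP51A1 came from the study's list of genes picked by this interaction, so their values here are not independent of that selection.

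TM7SF2 overlaps VPS51, a gene of vesicle transport, in the RefSeq annotation of another rhesus assembly than that of the counts, and how the authors' counting treated shared reads is not given in the sources used here. VPS51, looked at after the values of TM7SF2 were seen, averaged 48.2 CPM in *C* and 47 CPM in *T* + *WSD* (log2 fold change -0.04 with SE 0.12, adjusted p = 0.883 by edgeR). ACAT2 likewise overlaps TCP1, a chaperonin subunit, with a log2 fold change of -0.17 (SE 0.10, adjusted p = 0.264 by edgeR) in the same comparison. In that annotation 11 of the 21 tested members overlap some other gene, 3 of them a protein-coding one, and the third of these is FDPS, also called, whose partner LOC144330930 was not analysed here.

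With either treatment alone no member passed the threshold. In *WSD* against *C*, edgeR called 0 of 21 members and 0 of all tested genes (0%), and 5 members were at an unadjusted p under 0.05, against 18.5% of all tested genes. Of these 5, MVK, IDI1, SCAP and MBTPS1 were higher and INSIG2 lower, and DESeq2 called 0 of the 22 matched members, against 1.58% of the genes it tested. IDI1 averaged 22.9 ± 9.75 CPM in *C* and 40.9 ± 22.95 CPM in *WSD*, and MVK 9.45 ± 3.93 and 15.3 ± 3.66 CPM (SD, n = 6 each). The median log2 fold change was 0.19 over the members and -0.02 over all tested genes.

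In *T* against *C*, edgeR called 0 of 21 members and 0 of all tested genes (0%), DESeq2 called 0 of the 22 matched members, against 0.0466% of the genes it tested, and 2 members were at an unadjusted p under 0.05, against 8.63% of all tested genes. These were EBP, at 15.1 ± 3.45 CPM in *T* against 26.3 ± 7.15 CPM in *C* (SD, n = 6 each), with 5 of 6 *T* animals below every control, and TM7SF2. The median log2 fold change over the members was -0.16, against -0.02 over all tested genes. It was -0.40 outside the library batch and 0.22 within it, so the direction did not hold across the libraries.

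The genes of SREBP control were measured beside the enzymes. SREBF1, which encodes the SREBP forms best known for fatty acid synthesis, ran from 32.6 to 198 CPM in *C* (median 68.5) and from 43.5 to 104 CPM in *T* (median 50.7). In *WSD* it ran from 69.7 to 268 CPM (median 152), with replicate 20 the highest, and in *T* + *WSD* from 59.3 to 164 CPM (median 115). All groups overlapped. SREBF1 was not called, with log2 fold changes of 0.40 in *T* + *WSD* against *C* (SE 0.39, adjusted p = 0.521 by edgeR) and 0.81 in *WSD* against *C* (SE 0.39, adjusted p = 0.274 by edgeR). Its log2 fold change in *T* + *WSD* against *C* was -0.04 outside the batch and 1.52 within it.

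SREBF2 encodes the SREBP best known for cholesterol synthesis. It ran from 101 to 239 CPM in *C* (median 134) and from 131 to 176 CPM in *T* + *WSD* (median 160). The *T* + *WSD* range lay inside the *C* range, and the log2 fold change was 0.06 (SE 0.17, adjusted p = 0.854 by edgeR). SCAP ran from 87.9 to 125 CPM in *C* (median 99.8) and from 95.8 to 120 CPM in *T* + *WSD* (median 106), again inside the *C* range, with a log2 fold change of 0.01 (SE 0.12, adjusted p = 0.955 by edgeR). The lower enzyme mRNAs of *T* + *WSD* stood beside SREBF2 and SCAP mRNAs that were not called in any of the 6 comparisons. SCAP nevertheless had a log2 fold change of 0.32 in *WSD* against *C* (SE 0.12, adjusted p = 0.172 by edgeR). Against *WSD* it was -0.305 in *T* + *WSD* (SE 0.12, adjusted p = 0.142 by edgeR), with 3 of 6 animals below every *WSD* animal. For SREBF2 these were 0.26 and -0.21 (adjusted p = 0.399 and 0.526 by edgeR).

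Of the INSIG genes, INSIG1 ran from 43.2 to 161 CPM in *C* (median 81.4), and 3 of 6 *T* + *WSD* animals were below that range. Its log2 fold change in *T* + *WSD* against *C* was -0.95 (SE 0.39, adjusted p = 0.0907 by edgeR), which missed the threshold. INSIG2, the other INSIG form, ran from 19.8 to 29.2 CPM in *C* (median 22.4) and from 17.8 to 21.4 CPM in *T* + *WSD* (median 19.1), with 4 of 6 *T* + *WSD* animals below every control. Its log2 fold change was -0.28 (SE 0.15, adjusted p = 0.205 by edgeR). MBTPS1 averaged 198 ± 16.6 CPM in *C* and 236 ± 12.4 CPM in *WSD* (SD, n = 6 each), and all 6 *WSD* animals were above every control, but the log2 fold change of 0.26 was not called (adjusted p = 0.143 by edgeR).

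The groups also differed in how far their animals spread. Among the 15 enzymes the SD of log2 CPM was smallest in *T* + *WSD* for 14 and largest in *WSD* for 11. Over all tested genes *T* + *WSD* had the smallest SD in 50.2% and *WSD* the largest in 33%. The median SD of the enzymes was 0.479 for *C*, 0.308 for *T*, 0.581 for *WSD* and 0.207 for *T* + *WSD*, and that of all tested genes 0.336, 0.292, 0.333 and 0.225. EBP showed the contrast, with a highest to lowest ratio of 5.84 in *WSD* and 1.25 in *T* + *WSD*. The ratio in *WSD* rested on replicate 24 at 59.7 CPM, with the next highest animal at 23.8 CPM. The exception was TM7SF2, whose SD was smallest in *C*. The identifiers of EBP, MSMO1 and CYP51A1 came from the study's own lists of changed genes, so their spread is not independent of that selection. This difference in spread was not tested.

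**Figure D3:**
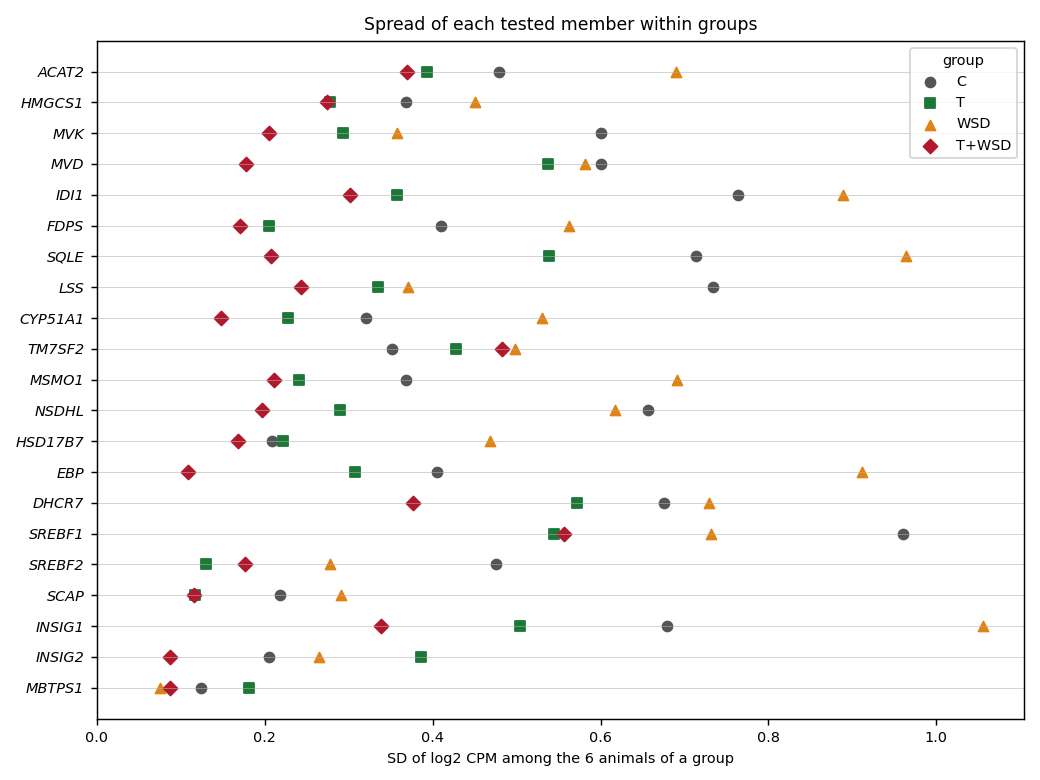
SD of log2 CPM among the 6 animals of a group (x axis) for the 21 tested members in pathway order (y axis), with 1 symbol per group. For 14 of the 15 enzymes, ACAT2 to DHCR7, the *T* + *WSD* diamond is the leftmost symbol, and for TM7SF2 it is not.

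Some *WSD* animals were the highest for several enzymes. *WSD* replicate 24 held the highest value of all 24 animals for 7 of the 15 enzymes, replicate 23 for 3 and replicate 20 for 2, while these animals held the highest value of 5.02%, 3.29% and 11.2% of all tested genes. Replicate 24 reached 59.8 CPM for ACAT2, 81.8 CPM for FDPS, 72.3 CPM for CYP51A1 and 281 CPM for NSDHL. Replicate 20 was the highest of all 24 animals for INSIG1, SREBF1, MVK and HSD17B7 but the lowest *WSD* animal for ACAT2, MVD, SQLE, MSMO1 and DHCR7, so the enzymes did not move together in this animal. In *C*, replicates 4 and 5 held the highest value of the group for 8 and 5 of the 15 enzymes.

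**Figure D4:**
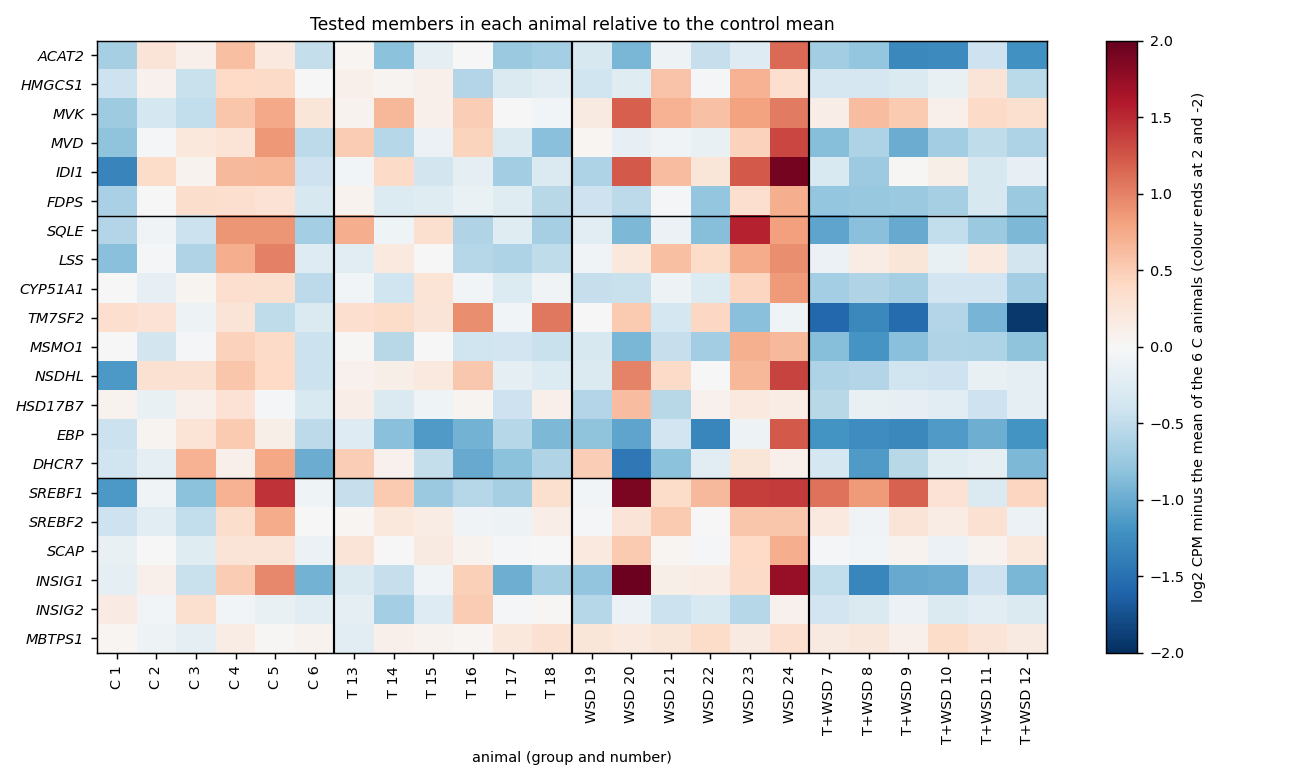
Log2 CPM of the 21 tested members (rows, in pathway order) in each of the 24 animals (columns, by group), less the mean of the 6 *C* animals. *WSD* replicate 24 is red for most enzymes, *WSD* replicate 20 is red for INSIG1 and SREBF1 but blue for ACAT2, and the *T* + *WSD* columns are blue for most enzymes.

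Members were then compared with INSIG1 among animals of the same group, by correlating log2 CPM after subtracting each group's mean (n = 24 animals, 20 relations). Pearson's r was above 0 for 18 of 20 members, with a median of 0.439, against -0.00165 over all tested genes. By permutation of the animals within groups, 9 members had an unadjusted p under 0.05 with r above 0, against 6.56% of all tested genes. With adjustment over all tested genes 0 members and 0% of all tested genes passed. Adjusted over the 20 relations alone, a count that leans on the choice of the list, 3 members passed, namely NSDHL, SCAP and IDI1.

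NSDHL followed INSIG1 with r = 0.737 (permutation p = 0.00104, adjusted p = 0.317 over all tested genes) and rho = 0.769 (permutation p = 0.00026). For SCAP r was 0.717 (permutation p = 0.00283, adjusted p = 0.341) and rho was 0.779 (permutation p = 0.00018). For IDI1 r was 0.677 (permutation p = 0.00555, adjusted p = 0.341) and rho was 0.663 (permutation p = 0.00305). TM7SF2 had r = 0.195 (permutation p = 0.42, adjusted p = 0.809) and rho = 0.203 (permutation p = 0.372).

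Without *WSD* replicates 20 and 24, the animals farthest from the median of INSIG1, r was 0.626 for NSDHL, 0.536 for SCAP and 0.561 for IDI1, and r was above 0 for 19 of 20 members, but 0 members passed the adjustment over the 20 relations. In the 16 libraries outside the batch r was 0.872, 0.778 and 0.78 in the same order, with a median of 0.608 over the 20 members, of which 9 passed that adjustment. In the 8 libraries of the batch r was 0.701, 0.791 and 0.784, with a median of 0.315 over the 20 members, of which 12 were above 0. SREBF2 had r = 0.477 with INSIG1 (permutation p = 0.0433, adjusted p = 0.466) and rho = 0.423 (permutation p = 0.0807).

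**Figure D5:**
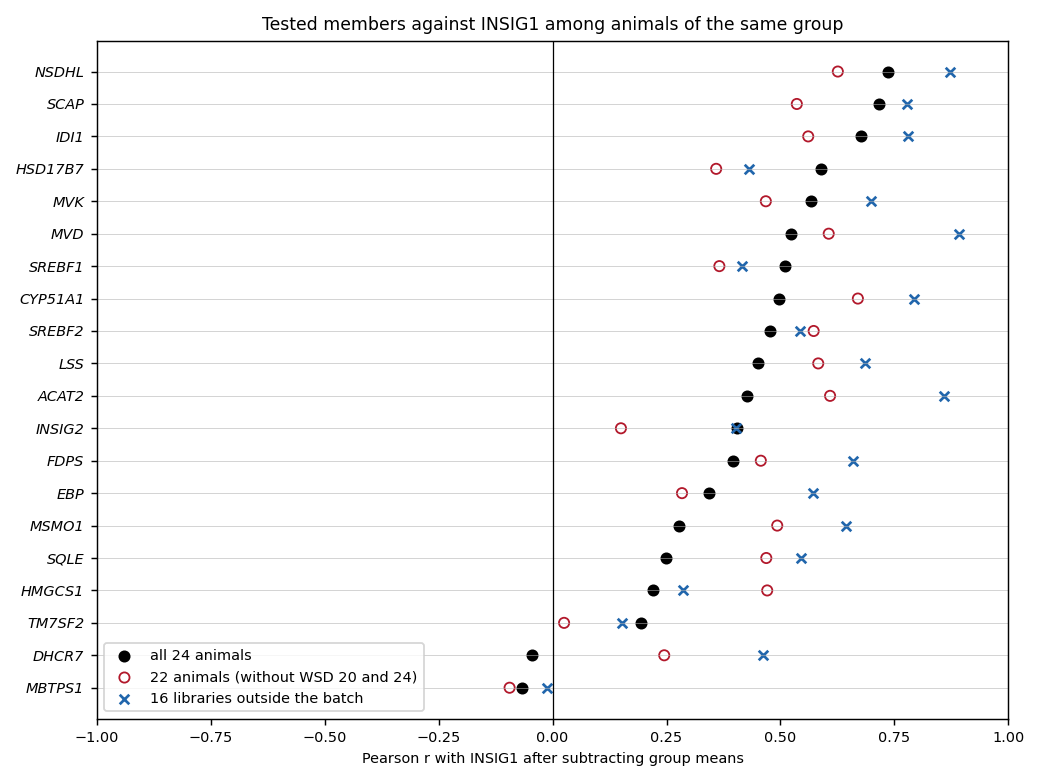
Pearson r with INSIG1 after subtracting group means (x axis) for the 20 other tested members (y axis, ordered by r in all 24 animals), in all animals, without *WSD* replicates 20 and 24, and in the 16 libraries outside the batch. NSDHL, SCAP and IDI1 head the order, and TM7SF2, DHCR7 and MBTPS1 lie at its end.

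Other genes around the pathway did not share one direction in *T* + *WSD* against *C*. In that comparison 10% of all tested genes were called, and 4883 of 15207 were at an unadjusted p under 0.05. Of 15 tested genes of sterol-regulated protein degradation, 2 were called, a share near that of all genes: UBE2G2, a ubiquitin-conjugating enzyme, higher (log2 fold change 0.83, adjusted p = 0.0102 by edgeR) and PGRMC1, a membrane protein that binds sterol enzymes, lower (-0.71, adjusted p = 0.0175 by edgeR). Of 6 partners of the sterol enzymes 1 was called, ERG28, a scaffold of the methyl removal, lower (-0.64, adjusted p = 0.0198 by edgeR). Of 9 genes of the isoprenoid branches 0 were called by edgeR, with 2 at an unadjusted p under 0.05, fewer than the share of all genes.

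Of 9 genes of oxysterol sensing and cholesterol export or ester handling, 4 were called, all higher, against 4.72% of all tested genes. These were CYP7B1, which hydroxylates oxysterols (log2 fold change 1.43, adjusted p = 0.00394 by edgeR), ABCA1, which exports cholesterol (0.71, adjusted p = 0.0167 by edgeR), NR1H3, the oxysterol receptor LXR alpha (0.78, adjusted p = 0.0324 by edgeR), and LIPA, the lysosomal lipase for cholesterol esters (1.04, adjusted p = 0.0465 by edgeR). The identifier of LIPA came from the study's own lists. The median over these 9 genes was 0.71, against -0.04 over all tested genes. In *T* + *WSD* against *WSD* 0 of the 9 were called, against 0.815% of all tested genes, and their median was 0.0034, against -0.03. In *WSD* against *C* 0 of the 9 and 0 of all tested genes were called, and the median was 0.21, against -0.02.

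For 12 tested genes of fatty acid synthesis under SREBP control, 0 were called by edgeR in *T* + *WSD* against *C*, where 10% of all tested genes were, and 2 were at an unadjusted p under 0.05, against 4883 of 15207. Of the 12, 10 had a negative fold change there, with a median log2 fold change of -0.62, against -0.04 over all tested genes. In *T* against *C* 11 were negative, with a median of -0.60, against -0.02 over all tested genes. In *WSD* against *C* 11 were positive, with a median of 0.67, against -0.02. In these 2 comparisons 0 of the 12 were called. Against *WSD*, all 12 in *T* + *WSD* had a negative fold change, with a median log2 fold change of -1.37, against -0.03 over all tested genes, and 1 was called lower, against 0.381% of all tested genes. It was ACLY, which makes cytosolic acetyl-CoA, with a log2 fold change of -2.54 (SE 0.65, adjusted p = 0.0457 by edgeR).

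The summed level of the adipocyte markers ran the other way from the mesothelial one, with a median of 7180 CPM for *C*, 8320 CPM for *T*, 9770 CPM for *WSD* and 11300 CPM for *T* + *WSD*, but 0 of the 7 were called by edgeR in *T* + *WSD* against *C* or against *WSD*, with 3 and 0 at an unadjusted p under 0.05. PLIN4 averaged 1891 CPM in *C* and 4645 CPM in *T* + *WSD*, while GPD1, an enzyme of glycerol phosphate, averaged 1119 and 920.8 CPM. With their mean as a covariate the median log2 fold change of the members in *T* + *WSD* against *C* was -0.64, where it was -0.49 without the covariate. At an unadjusted p under 0.05 were 12 members, against 2995 of 15207 tested genes, and 0 members were called, where 0.0789% of all tested genes were. The same covariate gave 6 called members in *T* + *WSD* against *WSD*, against 1.97% of all tested genes, where the mesothelial covariate gave 0 members and 0.00658% of all tested genes.

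Of 6 endothelial markers 4 were called higher in *T* + *WSD* against *C* (PECAM1, VWF, CDH5 and CLDN5, the last with an identifier from the study's own lists), against 4.72% of all tested genes, as were 2 of 5 smooth muscle and pericyte markers (RGS5 and TAGLN) and 1 of 6 macrophage markers (MSR1), while 0 of 5 fibroblast markers were called by edgeR, with 0 at an unadjusted p under 0.05. The T and NK cell markers and the B and plasma cell markers summed to at most 5.91 and 3.28 CPM in any animal. Of 2 tested hepatocyte markers ALB was called higher, with a median of 1.28 CPM and a range of 0 to 34.3 CPM in *T* + *WSD*, and SERPINA1 was not called, with a log2 fold change of -0.58. APOH was at or under 3 counts in every library.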

How the data were processed

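Omental WAT of 24 animals was measured by RNA-seq after ribosomal RNA depletion. The authors deposited raw counts per gene on rheMac8, and the submitters' processing notes name FastQC 0.11.5, Trimmomatic 0.36, STAR 2.5.2b and DESeq2 1.18.1, while the counting tool and its strand setting are not given in the sources used here. Normalization was by TMM, and the tests came from edgeR 4.0.16 under R 4.3.3 (glmQLFit with robust=TRUE and legacy=TRUE, filterByExpr with minimum count 10 and total 15) in 1 fit to 4 groups, with two-sided p values and Benjamini-Hochberg adjustment over 15207 genes. Correlations used log2 CPM with a prior count of 2 and 100000 permutations. DESeq2 1.42.0 was an alternative. The scripts were tested on simulated data. No library repeated another of its group. Members, named genes and lists were chosen with earlier results of these data known. All members were named, with full statistics for called members and for SREBF1, SREBF2, SCAP, INSIG1 and INSIG2, and from other lists called genes were named, at most 5 per list, with VPS51, TCP1, PLIN4, GPD1, SERPINA1 and APOH named outside this rule, after values were seen. A level of 3 counts was taken as the floor.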

Additional observations from a re-analysis of the deposited data

Results flagged for a closer look

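Among 84 combinations of member and group, 4 had an animal far from the other 5, where chance alone gives about 1 in 20, so their number is about what chance gives. In *WSD*, replicate 24 was the highest animal for ACAT2 at 59.8 CPM (next highest 25.4), for MVD at 17.8 CPM (next highest 9.6) and for EBP at 59.7 CPM (next highest 23.8). In *T* + *WSD*, replicate 11 was the highest for FDPS at 39.5 CPM (next highest 31.3). The effect of testosterone on TM7SF2 differed between the 2 diets by -1.75 on the log2 scale, by the edgeR test of the interaction.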

How the results depend on the processing

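The alternatives listed first were DESeq2, RLE size factors, other filters on low counts, fits to the compared groups alone, other thresholds, covariates, the 16 libraries outside the batch and each animal left out, and the fits to the 8 libraries, without *C* replicate 1 and *WSD* replicate 20, or over the gene name table alone, and for INSIG1 the adjustment over all tested genes and the fit without the 2 farthest animals, were added after seeing the data. In *T* + *WSD* against *C* the 6 called members became 9 in the compared groups alone, with INSIG1, MVD and SQLE added, 2 at a fold change over 2, 3 over the gene name table, and 0 in the 16 libraries, in the 8 libraries, with the mesothelial mean and with the adipocyte mean. In *T* + *WSD* against *WSD* the 3 became 9 with DESeq2, 6 with the adipocyte mean, 1 without a filter on low counts, and 0 in the compared groups alone, in the 16 libraries, in the 8 libraries, with the mesothelial mean and without the pair of libraries that stood apart. For *T* + *WSD* against *T* the 1 became 2 in the compared groups alone and 0 in the 8 libraries and with the mesothelial mean. The interaction call became 0 in the 16 and in the 8 libraries. The 3 members that followed INSIG1 became 15 without subtraction of group means, 9 in the 16 libraries, and 0 both with adjustment over all tested genes and without the 2 farthest animals. The cause of these moves was not tested. Leaving out 1 animal gave 3 to 7 called members in *T* + *WSD* against *C*, 0 to 7 in *T* + *WSD* against *WSD*, 1 to 1 in *T* + *WSD* against *T* and in the interaction, 0 to 0 in *WSD* and in *T* against *C*, and 1 to 10 members that followed INSIG1. The number that followed INSIG1 was 1 without *C* replicate 5 or *WSD* replicate 24 and 10 without *WSD* replicate 20. For 11 called pairs of member and comparison, 0 of 152 alternatives and 0 of 264 fits without 1 animal turned the sign, while 55 and 45 ended the call. With the mesothelial mean the fold changes in *T* + *WSD* against *C* shrank, most for MSMO1, from -0.84 to -0.09, CYP51A1, from -0.59 to -0.2, and EBP, from -1.22 to -0.56. That mean did not overlap between the 2 groups, so the fit cannot tell the part of the cells from that of the treatment. No paired analysis was possible because the replicate numbers differ between the groups.

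Members with few counts limit precision, since MVD held 16 to 427 counts per library. The 6 animals of a group had been selected by the study, identifiers of 4 tested members came from its lists of changed genes, and protein, sterol content and SREBP processing were not analysed here.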
